A study of Mus musculus with 12 samples.

Results

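The glycolysis and hypoxia response genes are a list of 41 genes that was fixed by symbol and followed through reprogramming from mouse embryonic fibroblasts (MEFs) to pluripotency. The genes were chosen with earlier results of these data known. All 41 symbols were found among the 24098 genes of the deposited expression table and 0 were absent. Of these, 25 genes serve glycolysis: 4 transporters of glucose or lactate, 15 glycolytic enzymes, 4 enzymes of the pyruvate branch and 2 regulators of phosphofructokinase. The other 16 belong to the hypoxia response, with 4 genes of the hypoxia-inducible factors (HIFs) and their oxygen sensors and 12 hypoxia targets. Many glycolysis genes are also known HIF targets, so the split is by the function of the product.

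Messenger RNA was sequenced in 12 libraries, 1 for each condition. D0 were MEFs from mid-gestation embryos in which GFP had been placed behind Oct4, kept in medium with fetal bovine serum. D3 were cells 3 days after retroviral delivery of the OSKM factors (Oct4 and Klf4, Sox2 and c-Myc). Infected cells were grown without feeders. FF medium, among the media named for reprogramming, holds serum replacement, LIF, ascorbic acid, bFGF, N-2 supplement and a GSK3 inhibitor. D6T- and D6T+ and D9T- and D9T+ were cells of days 6 and 9 sorted as Thy-1- or Thy-1+, and D12S+ and D12S- and D16S+ and D16S- were cells of days 12 and 16 sorted as SSEA-1+ or SSEA-1-. Established induced pluripotent stem cells (iPSCs) and ES-D3 mouse embryonic stem cells (mESCs), which did not receive OSKM, were grown in FF medium by the labels. The study's methods instead name LIF medium with serum or with serum replacement for these lines. For reprogramming they list both of these beside FF medium. The medium of each library thus cannot be settled here, and its part in differences between libraries was not tested. Thy-1- and then SSEA-1+ cells are treated by the study as the route of successful reprogramming. The oxygen level of the cultures was not given in the sources used here. Medium and OSKM both changed after D0, so their parts in any difference from D0 cannot be told apart. From day 9 to day 12 the sorting marker changed too, and the effects of time and marker over that step cannot be told apart.

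Glycolysis splits glucose to pyruvate. When pyruvate is reduced to lactate rather than oxidised in mitochondria, the pathway can run without oxygen, and pluripotent cells are known to rely on it strongly. Oxygen is sensed by the prolyl hydroxylases encoded by the Egln genes, which mark the HIF alpha subunits for destruction, and at low oxygen the stabilised subunits switch on glucose uptake, lactate export, angiogenic signals and mitophagy genes. HIF activity is set largely at the protein level, which mRNA does not show. Many steps of glycolysis are encoded by several isoform genes with tissue-specific use, so the isoforms were described apart from the hypoxia targets.

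Expression is given in FPKM, a fragment count scaled for transcript length and library size, as the authors deposited it. Differences are on the scale log2(FPKM + 1), which understates the change of low genes, and a gene is called higher or lower when it differs by at least 2-fold on that scale. With 1 library per condition, no difference below has a replicate check and no test was possible. All 41 genes were kept by the filter of at least 1 FPKM in at least 1 library, which left 14178 genes as the background. Summed over the table, FPKM reached 648264 in D0 and only 484968 in D16S+, and depth relative to D0, estimated from the steps between low values, ranged from 0.967 in D9T+ to 1.56 in D6T-. Cuffdiff's intervals around the values were wide, with a median half-width of 104% of the FPKM over the 41 genes, and the intervals lay apart for 2 of the 492 differences of a gene in a comparison. These were 1 gene higher from D0 to D16S+ and 1 higher from D0 to D16S-. Of all 14178 kept genes, 79 lay apart as higher and 48 as lower in the former, and 49 and 6 in the latter. The cell labels were checked with markers: 8 fibroblast genes summed to 7233 FPKM in D0 and 55.3 FPKM in iPSCs, and 8 pluripotency genes summed to 2.11 FPKM in D0 but 3545 in iPSCs and 4122 in mESCs.

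Reads that mapped to more than 1 locus had been removed, and glycolytic enzymes are known for processed pseudogenes that copy their mRNA. To find shared sequence, the distinct 31-base words of each annotated transcript were looked up in the mm9 genome outside the gene itself. Such exact matches of short words do not measure how far a level was lowered. For Pgam1, 94.1% of the words were found elsewhere, for Pgk1 94.0%, for Gapdh 80.0%, for Bnip3 77.1% and for Eno1 53.5%. These 5 genes were the only members above 50%. Gpi1 (49.3%), Ldhb (43.5%), Ldha (42.8%), Bnip3l (37.1%), Tpi1 (35.4%) and Aldoa (28.7%) followed, whereas Slc2a1, Slc2a3, Slc16a3, Aldoc, Egln3 and Ndrg1 had 0 such words. How many reads were lost in this way was not tested, since no reads were examined, and the FPKM of these genes may be low relative to other genes.

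Across the 12 libraries, many of the 41 genes were higher than in D0 in both sorted fractions of days 12 and 16, and many were lower in iPSCs than in mESCs. The levels spanned a wide range, from Aldoa, at 1259 FPKM already in D0, to Car9, at 0.152 FPKM there, and some genes went against this course, with P4ha2 highest in D0 and Hif1a in D6T+. In D12S+, D12S-, D16S+ and D16S- alike, 14 of the 41 genes were at least 2-fold above D0, against 6.62% of the background, and 0 were at least 2-fold below it, against 8.37%. From D0 to D16S+ alone, 18 genes were higher, against 20.0% of the background, and 1 (P4ha2) was lower, against 20.9%. From D0 to D16S-, 22 were higher, against 12.8%, and 0 lower, against 11.4%. The 14 genes above D0 in all 4 libraries were Slc2a1, Slc2a3, Slc16a3, Hk2, Pfkl, Pfkp, Aldoc and Pdk1 of the glycolysis genes and Epas1, Egln3, Bnip3, Car9, Ndrg1 and Ankrd37 of the hypoxia genes. These 4 libraries share D0 as their reference, and the criterion over all 4 was chosen after the values had been seen. Summed over the 15 enzymes, the level was 3563 FPKM in D0, between 3327 and 3877 FPKM in the libraries of days 3 to 9, between 6280 and 6603 FPKM in the 4 libraries of days 12 and 16, 3630 FPKM in iPSCs and 10829 FPKM in mESCs. All 4 libraries of days 12 and 16 thus lay above all those of days 0 to 9 in this sum. Its largest parts in D0 and D16S+ were Aldoa (1259 and 2829 FPKM) and Gapdh (969.6 and 1145 FPKM). Of the 15 enzymes, 7 were at least 2-fold above D0 in D16S+ and 6 in D16S-, against the 20.0% and 12.8% given above, and 0 were below.

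**Figure D1:**
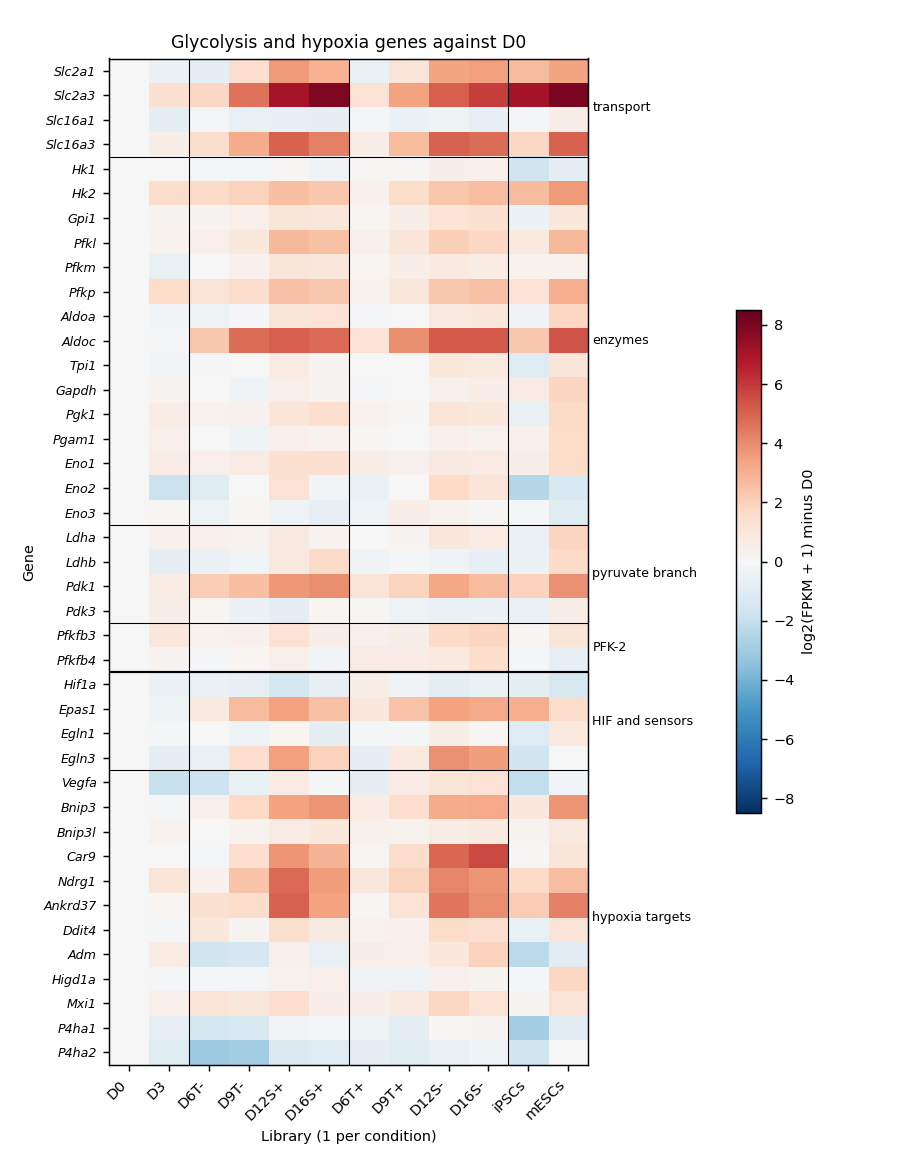
Difference of each of the 41 genes (rows, grouped by role) from D0 in each of the 12 libraries (columns), on the log2(FPKM + 1) scale shown by the colour bar. The 14 genes named above are red in all 4 libraries of days 12 and 16, and most of them are paler in iPSCs than in mESCs.

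Much of this lay between days 9 and 12. Between D9T- and D12S+, 19 of the 41 genes were at least 2-fold higher, against 7.05% of the background, and 0 were lower, against 3.30%. Between D9T+ and D12S-, 14 were higher, against 2.50%, and 0 were lower, against 3.31%. Both comparisons were added after the values had been seen. The median log2 difference was 0.71 for the glycolysis genes and 1.26 for the hypoxia genes between D9T- and D12S+, and 0.77 and 0.94 between D9T+ and D12S-, beside 0.01 over all kept genes in both. The first 3 days were quiet by contrast. From D0 to D3, 4 genes were higher (Slc2a3, Hk2, Pfkp and Ndrg1), against 5.76% of the background, and 3 were lower (Eno2, Vegfa and P4ha2), against 8.67%.

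Glucose enters by GLUT1, encoded by Slc2a1, the broadly expressed basal transporter, and by GLUT3, encoded by Slc2a3, a high-affinity transporter known from neurons and early embryos. Slc2a1 (mm9 chromosome 4, 118781316 to 118809935, plus strand) was at 67.5 FPKM in D0 and 47.1 in D3, at 39.1 in D6T- and 46.1 in D6T+, 183 in D9T- and 147 in D9T+, 835 in D12S+ and 685 in D12S-, 538 in D16S+ and 759 in D16S-, 442 in iPSCs and 684 FPKM in mESCs. It was high in all libraries from day 12 on. Slc2a3 (chromosome 6, 122677827 to 122751658, minus strand) was at 1.87 FPKM in D0 and 6.09 in D3, at 8.80 in D6T- and 5.82 in D6T+, 69.8 in D9T- and 30.1 in D9T+, 365 in D12S+ and 96.9 in D12S-, 716 in D16S+ and 167 in D16S-, 386 in iPSCs and 738 FPKM in mESCs. From D0 to D16S+ it differed by 7.96 on the log2 scale, and it was at least 2-fold higher in D9T-, D12S+ and D16S+ than in the other fraction of the day (log2 differences of 1.19, 1.90 and 2.09). Slc2a3 made up 2.68% of the summed FPKM of the 4 GLUT genes considered in D0, 27.6% in D9T-, 30.4% in D12S+ and 57.0% in D16S+, and 46.6% in iPSCs and 51.8% in mESCs. In D16S- it made up 18.0%. Both fractions of day 16 thus held abundant glucose transporter mRNA, 1254 and 926 FPKM for both genes together, of which the GLUT3 gene gave the larger part only in D16S+ among these fractions. The insulin-responsive Slc2a4 was below 3 FPKM in all 12 libraries. The hepatic Slc2a2 was listed below 1 FPKM in every library.

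Lactate leaves by the monocarboxylate transporters MCT1, encoded by Slc16a1, which works in both directions, and MCT4, encoded by Slc16a3, a low-affinity exporter of glycolytic cells. Slc16a3 (chromosome 11, 120809794 to 120822182, plus strand) was at 4.74 FPKM in D0 and 7.20 in D3, at 15.2 in D6T- and 7.41 in D6T+, 50.6 in D9T- and 36.8 in D9T+, 183 in D12S+ and 188 in D12S-, 113 in D16S+ and 152 in D16S-, 18.6 in iPSCs and 182 FPKM in mESCs. The levels of days 12 and 16 and of mESCs stood apart from the rest. Slc16a1 stayed between 14.4 FPKM in D16S+ and 38.5 FPKM in mESCs. The share of Slc16a3 in the MCT genes went from 15.3% in D0 to 92.0% in D12S+ and 90.5% in D12S-, and was 44.3% in iPSCs and 82.5% in mESCs. In contrast to the glucose transporters, this switch was as large in the SSEA-1- as in the SSEA-1+ fractions, with log2 differences of -0.03 on day 12 and -0.43 on day 16.

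**Figure D2:**
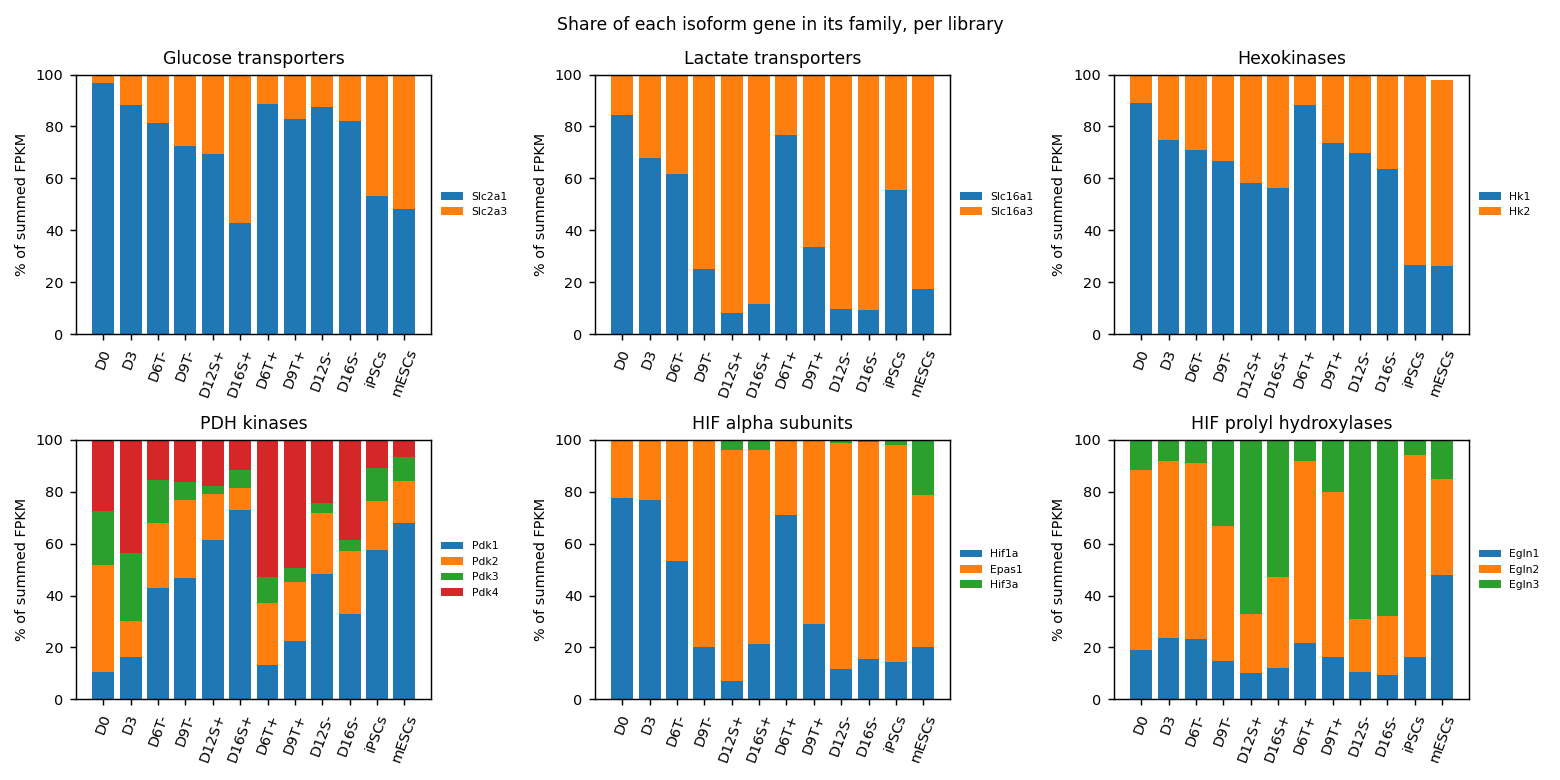
Share of each isoform gene in the summed FPKM of its family (percent, vertical axis from 0) in each of the 12 libraries, in 6 families. Slc2a3 and Hk2 gain share towards iPSCs and mESCs, Slc16a3 and Egln3 have their largest shares on days 12 and 16, and Hif1a gives way to Epas1. Genes of a family that are not drawn fill the small gap under 100%.

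Hexokinase commits glucose to the cell. Hk1 is the constitutive form and Hk2 the inducible form, well known from muscle and tumours. Hk1 was between 21.8 FPKM in iPSCs and 106 FPKM in D12S-. Hk2 (chromosome 6, 82675019 to 82724448, minus strand) was at 8.18 FPKM in D0 and 24.3 in D3, at 26.9 in D6T- and 10.6 in D6T+, 34.0 in D9T- and 26.7 in D9T+, 54.0 in D12S+ and 45.6 in D12S-, 44.7 in D16S+ and 55.3 in D16S-, 59.6 in iPSCs and 109 FPKM in mESCs. The share of Hk2 in the 5 hexokinase genes was 10.2% in D0 and 11.9% in D6T+, but 29.0% in D6T-, the day 6 fraction in which Hk2 was higher by 1.26 on the log2 scale. It was 43.2% in D16S+, 35.9% in D16S-, 72.8% in iPSCs and 71.7% in mESCs. The order of the isoforms was thus inverted only in the pluripotent lines among the 12 libraries, where Hk1 was lower (-1.67 from D0 to iPSCs) as well as Hk2 higher (2.72).

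Phosphofructokinase, the main control point of the pathway, is built from the liver, muscle and platelet subunits encoded by Pfkl, Pfkm and Pfkp. Pfkl was at 35.1 FPKM in D0 and 43.0 in D3, at 48.8 in D6T- and 45.9 in D6T+, 65.3 in D9T- and 72.6 in D9T+, 240.2 in D12S+ and 146 in D12S-, 205 in D16S+ and 119.7 in D16S-, 64.0 in iPSCs and 244 FPKM in mESCs. It was at least 2-fold above D0 in all libraries of days 12 and 16 and in mESCs. Pfkp was at 17.4 FPKM in D0 and 53.2 FPKM in D3, a log2 difference of 1.56, and Pfkm ranged only from 26.4 FPKM in D3 to 84.8 FPKM in D12S+. In D0, Pfkm was the largest of the family (44.3% of its FPKM), whereas Pfkl was the largest in D6T- and in all libraries of days 9 to 16, iPSCs and mESCs. Its share was 55.9% in D12S+ and 47.0% in D12S-, 54.9% in D16S+ and 41.8% in D16S-, 41.0% in iPSCs and 54.0% in mESCs. The bifunctional enzymes encoded by the Pfkfb genes set fructose 2,6-bisphosphate, which activates phosphofructokinase. Pfkfb3 was at 22.2 FPKM in D16S- but only 8.85 in D16S+, and Pfkfb4 at 20.6 and 5.59 FPKM. Both were thus lower in the SSEA-1+ fraction of day 16, by 1.24 and 1.72 on the log2 scale, and in D16S+ they were within 2-fold of D0.

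Among the aldolases, which cleave the 6-carbon sugar, Aldoc showed one of the widest ranges of the list. Aldoc (chromosome 11, 78136470 to 78141283, plus strand), known as the brain form, was at 0.960 FPKM in D0 and 0.752 in D3, at 8.65 in D6T- and 3.49 in D6T+, 52.5 in D9T- and 29.4 in D9T+, 66.2 in D12S+ and 73.3 in D12S-, 55.3 in D16S+ and 73.2 in D16S-, 8.58 in iPSCs and 78.6 FPKM in mESCs. D0, D3 and D6T+ were the lowest, and iPSCs stood between these and the other late libraries. From D0 to D16S+ the log2 difference was 4.84, and the deposited intervals, 0 to 2.88 FPKM in D0 and 3.55 to 107 FPKM in D16S+, lay apart. Aldoc remained a small part of the family's FPKM, at most 4.43% (D9T-), and Aldoa, the ubiquitous form, was at 1259 FPKM in D0, 2829 FPKM in D16S+, 1011 in iPSCs and 4275 FPKM in mESCs. The 6 neuronal markers summed to between 9.41 FPKM in D0 and 158 FPKM in mESCs, mostly of Stmn2 outside D0. Elavl3 went from 0.00937 FPKM in D0 to 5.66 in mESCs, and Snap25 and Rbfox3 were below 1 FPKM in all 12 libraries. The part of neuronal cells in the level of Aldoc was not tested.

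Most other steps are served by a single main gene. Gapdh, which oxidises glyceraldehyde 3-phosphate, ranged from 788 FPKM in D9T- to 3370 FPKM in mESCs, the mutase gene Pgam1 from 63.2 to 251 FPKM in the same libraries, and Gpi1, which isomerises glucose 6-phosphate, from 271 FPKM in iPSCs to 907 FPKM in D16S-. Tpi1 (triose phosphate isomerase) was lowest in iPSCs (213 FPKM) and highest in mESCs (958 FPKM), and so was Pgk1, the first enzyme of the pathway that yields ATP, at 48.8 and 235 FPKM. Eno1, the ubiquitous enolase, was at 116 FPKM in D0, 279 FPKM in D16S+ and 341 FPKM in mESCs. Eno2, the neuronal form, was at 16.1 FPKM in D0 and 3.84 in D3, at 7.28 in D6T- and 10.9 in D6T+, 16.4 in D9T- and 16.5 in D9T+, 39.3 in D12S+ and 53.4 in D12S-, 13.3 in D16S+ and 35.1 in D16S-, 2.18 in iPSCs and 5.84 FPKM in mESCs. It was highest in D12S-, D12S+ and D16S- and lowest in iPSCs and D3. Eno3, the muscle form, ranged from 14.0 FPKM in mESCs to 44.6 FPKM in D9T+, while the 6 skeletal muscle markers, mostly Mylpf, summed to 360.1 and 25.5 FPKM in these libraries.

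At the end of the pathway, Ldha encodes the lactate dehydrogenase subunit that favours lactate and Ldhb the one that favours pyruvate. Ldha ranged from 475 FPKM in iPSCs to 2410 FPKM in mESCs and was within 2-fold of D0 in D16S+ and D16S-. Ldhb (chromosome 6, 142438769 to 142456477, minus strand) was at 61.0 FPKM in D0 and 35.7 in D3, at 42.5 in D6T- and 49.2 in D6T+, 51.0 in D9T- and 56.5 in D9T+, 111 in D12S+ and 47.1 in D12S-, 192 in D16S+ and 37.7 in D16S-, 42.2 in iPSCs and 194 FPKM in mESCs. It was high in D16S+ and mESCs, intermediate in D12S+ and below 62 FPKM in all other libraries, with log2 differences between the fractions of -0.21, -0.15, 1.22 and 2.32 on days 6, 9, 12 and 16. Pdk1, whose kinase turns off pyruvate dehydrogenase and so keeps pyruvate from mitochondria, was at 1.82 FPKM in D0 and 3.45 in D3, at 11.1 in D6T- and 5.09 in D6T+, 15.3 in D9T- and 9.60 in D9T+, 36.1 in D12S+ and 26.9 in D12S-, 42.0 in D16S+ and 17.0 in D16S-, 10.0 in iPSCs and 40.0 FPKM in mESCs. It was higher in D6T-, D9T-, D12S+ and D16S+ than in the other fraction of the day, by 0.99, 0.62, 0.41 and 1.26 on the log2 scale. Its share in the 4 PDK genes was 10.4% in D0, 73.1% in D16S+ and 32.8% in D16S-. In D16S-, Pdk4, which responds to fasting, held 38.5%, against 11.6% in D16S+. Pdk3 was low throughout, at most 5.51 FPKM.

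The hypoxia response was then examined. HIF binds DNA at a short core, ACGTG or GCGTG, the heart of the hypoxia response element. Of the hypoxia genes, 6 were at least 4-fold above D0 in both D12S+ and D12S- (Epas1, Egln3, Bnip3, Car9, Ndrg1 and Ankrd37), and the 4 of them with a promoter in the RefSeq table used here are shown because these genes were high together. Each line gives the 250 bases before the transcription start in RefSeq's GRCm38.p6 build, read 5′ to 3′ on the gene's strand, with matches to either core on either strand in capitals:
Egln3, minus strand, chr12:54203875-54204124: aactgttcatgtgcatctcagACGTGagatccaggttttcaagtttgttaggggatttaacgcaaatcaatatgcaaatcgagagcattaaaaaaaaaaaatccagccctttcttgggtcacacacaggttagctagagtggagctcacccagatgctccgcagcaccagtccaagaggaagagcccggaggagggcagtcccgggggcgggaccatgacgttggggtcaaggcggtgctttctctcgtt
Bnip3, minus strand, chr7:138909507-138909756: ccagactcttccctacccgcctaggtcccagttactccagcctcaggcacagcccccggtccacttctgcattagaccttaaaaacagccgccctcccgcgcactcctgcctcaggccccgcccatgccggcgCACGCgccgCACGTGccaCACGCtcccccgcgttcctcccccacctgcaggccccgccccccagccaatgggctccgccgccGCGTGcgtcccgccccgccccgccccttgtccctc
Car9, plus strand, chr4:43506776-43507025: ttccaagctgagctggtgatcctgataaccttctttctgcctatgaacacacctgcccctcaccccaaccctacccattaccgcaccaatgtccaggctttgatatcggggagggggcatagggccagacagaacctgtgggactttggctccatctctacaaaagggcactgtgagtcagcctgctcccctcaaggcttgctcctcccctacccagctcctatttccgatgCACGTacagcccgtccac
Ankrd37, minus strand, chr8:45999851-46000100: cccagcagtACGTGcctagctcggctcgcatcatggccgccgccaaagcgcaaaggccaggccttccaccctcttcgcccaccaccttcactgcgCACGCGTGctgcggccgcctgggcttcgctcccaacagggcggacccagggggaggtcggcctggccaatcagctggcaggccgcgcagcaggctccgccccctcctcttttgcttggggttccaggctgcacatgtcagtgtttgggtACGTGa
The Car9 window held 1 match, at position -18 counted from the start, and that of Egln3 held 1, at -229. Ankrd37 had 4 matches and Bnip3 had 5, and each of these windows held a pair of matches that overlap, in Bnip3 as a palindromic CACGTG. The members had 52 listed promoters from 37 genes, since some genes had more than 1, and 4 members had none. Of these promoters, 43 (82.7%) held at least 1 match, beside 38.6% of all 32851 promoters and 44.0% of those of protein-coding genes. ACGTG alone, counting both strands, was in 12 of 16 promoters of the hypoxia genes (75.0%) and 14 of 36 of the glycolysis genes (38.9%), beside 17.8% of those of protein-coding genes. Counted by gene, it was in 11 of 13 hypoxia genes (84.6%) and 11 of 24 glycolysis genes (45.8%), beside 20.0% of protein-coding genes. CACGTG, the E-box bound by Myc and other factors, was in 6 of 52 (11.5%), beside 6.63%. The windows of the members were richer in G and C (median 60.4%) than those of protein-coding genes (55.6%), whose part in these shares was not tested. The hypoxia genes were listed as genes of the HIF response, so the share of the HIF core among them is no independent result. A match is a stretch of letters and no evidence of binding.

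The genes of the HIF alpha subunits changed places in order of level. Hif1a (chromosome 12, 75002362 to 75048517, plus strand) was at 11.6 FPKM in D0 and 7.91 in D3, at 7.51 in D6T- and 16.9 in D6T+, 6.75 in D9T- and 9.18 in D9T+, 3.53 in D12S+ and 6.01 in D12S-, 6.74 in D16S+ and 7.44 in D16S-, 6.05 in iPSCs and 3.87 FPKM in mESCs, with its highest value in D6T+ and its lowest in D12S+. Epas1 (chromosome 17, 87153247 to 87232750, plus strand), which encodes HIF-2 alpha, was at 3.30 FPKM in D0 and 2.37 in D3, at 6.56 in D6T- and 6.86 in D6T+, 26.4 in D9T- and 22.5 in D9T+, 45.4 in D12S+ and 44.5 in D12S-, 23.6 in D16S+ and 39.5 in D16S-, 35.2 in iPSCs and 11.1 FPKM in mESCs. It was at least 2-fold above D0 in every library from day 9 on. Epas1 went from 22.2% of the FPKM of the 3 alpha subunit genes in D0 to 89.2% in D12S+, 87.1% in D12S- and 83.7% in iPSCs, and Hif1a from 77.7% to 6.94%, 11.8% and 14.4%. The switch was present on both routes, with log2 differences between the fractions of 0.22, 0.03 and -0.72 on days 9, 12 and 16. The third subunit gene, Hif3a, reached 4.05 FPKM in mESCs, 21.3% of the family.

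Of the oxygen sensors, Egln3 (PHD3) is itself a known HIF target, Egln1 (PHD2) is the main sensor at normal oxygen and Egln2 (PHD1) is largely independent of HIF. Egln3 (chromosome 12, 55279968 to 55304847, minus strand) was at 11.3 FPKM in D0 and 5.91 in D3, at 6.79 in D6T- and 6.23 in D6T+, 32.8 in D9T- and 20.5 in D9T+, 138 in D12S+ and 178 in D12S-, 46.8 in D16S+ and 144 in D16S-, 3.00 in iPSCs and 10.8 FPKM in mESCs. Days 12 and 16 stood above all other libraries. Egln1 stayed between 8.32 FPKM in iPSCs and 34.3 FPKM in mESCs. Egln3 made up 8.87% of the family in D6T-, 67.2% in D12S+, 68.9% in D12S- and 67.9% in D16S-, but 5.85% in iPSCs, where it was lower than in D16S+ by 3.58 on the log2 scale, the largest such difference of the 41 genes.

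Bnip3, a mitophagy receptor (mm9 chromosome 7, 146082519 to 146101202, minus strand), was at 2.83 FPKM in D0 and 2.64 in D3, at 3.93 in D6T- and 4.94 in D6T+, 11.6 in D9T- and 9.21 in D9T+, 39.3 in D12S+ and 33.7 in D12S-, 50.6 in D16S+ and 34.5 in D16S-, 6.01 in iPSCs and 50.5 FPKM in mESCs. Car9, a membrane carbonic anhydrase that removes acid (chromosome 4, 43519838 to 43526601, plus strand), was at 0.152 FPKM in D0 and 0.170 in D3, at 0.0487 in D6T- and 0.302 in D6T+, 2.17 in D9T- and 2.18 in D9T+, 14.3 in D12S+ and 32.3 in D12S-, 7.55 in D16S+ and 54.7 in D16S-, 0.255 in iPSCs and 1.30 FPKM in mESCs. Both were low up to day 6 and above all earlier libraries on days 12 and 16, but Bnip3 was close in both fractions whereas Car9 was higher in the SSEA-1- ones. Car9 was higher by 5.60 on the log2 scale in D16S- than in D0, with intervals of 0 to 0.553 FPKM in D0 and 3.48 to 106 FPKM in D16S- that lay apart. Ankrd37, an ankyrin repeat gene, was at 0.552 FPKM in D0 and 0.736 in D3, at 2.90 in D6T- and 0.680 in D6T+, 3.44 in D9T- and 2.46 in D9T+, 48.4 in D12S+ and 35.7 in D12S-, 15.8 in D16S+ and 23.1 in D16S-, 5.89 in iPSCs and 29.1 FPKM in mESCs. Ndrg1, a stress-induced gene of growth arrest, was at 4.83 FPKM in D0 and 10.8 in D3, at 6.40 in D6T- and 10.6 in D6T+, 29.9 in D9T- and 20.7 in D9T+, 159.5 in D12S+ and 100.2 in D12S-, 68.8 in D16S+ and 77.5 in D16S-, 17.5 in iPSCs and 35.1 FPKM in mESCs. The order was alike for these 2 genes, with the highest level in D12S+, the next in D12S- and the lowest in D0.

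**Figure D3:**
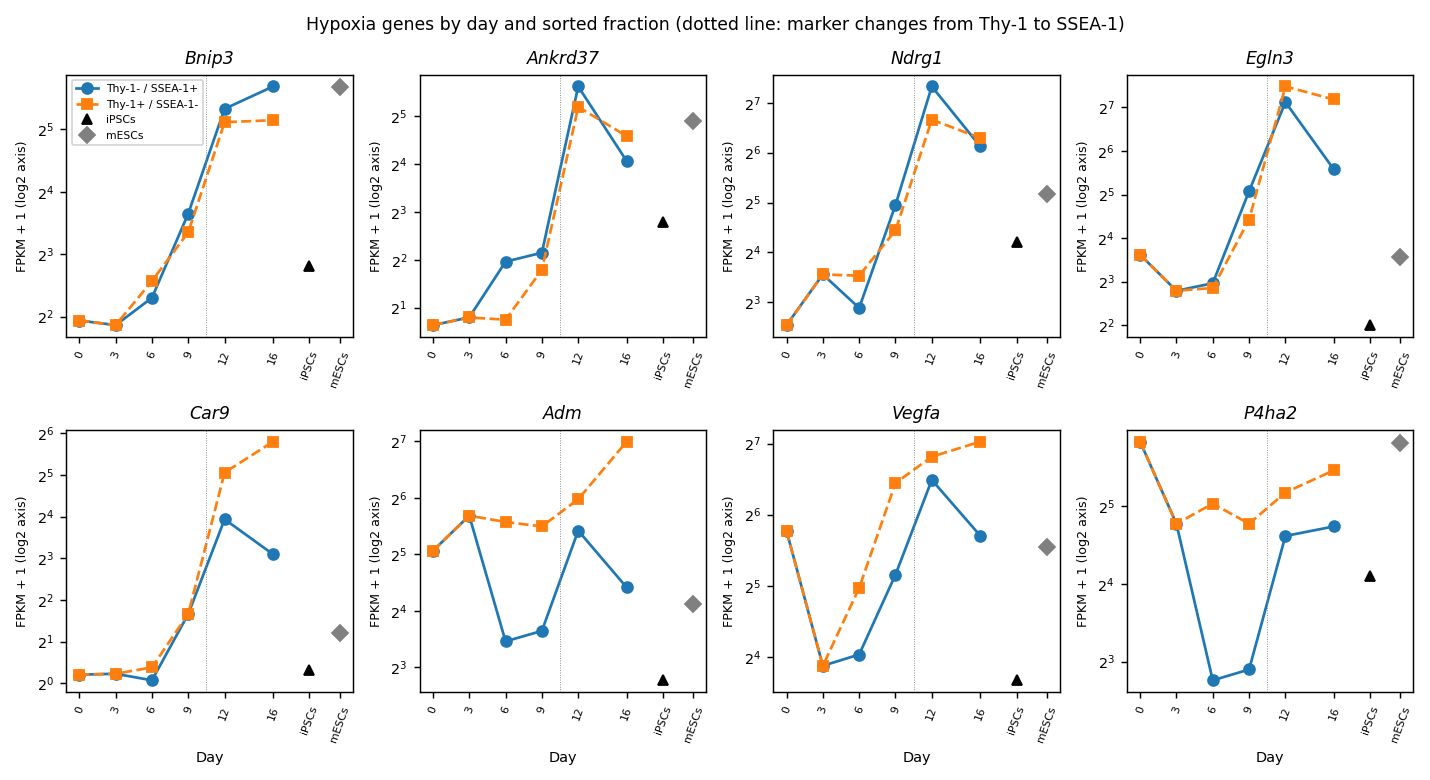
Level of 8 hypoxia genes (FPKM + 1, log2 axis) by day in the Thy-1- or SSEA-1+ libraries (blue circles) and the Thy-1+ or SSEA-1- libraries (orange squares), with iPSCs (triangle) and mESCs (diamond), 1 library per point. Bnip3, Ndrg1 and Egln3 stay within 2-fold between the fractions up to day 12, whereas Adm, Vegfa and P4ha2 are lower in the Thy-1- fractions of days 6 and 9. Car9 is at least 2-fold lower in the SSEA-1+ fractions of days 12 and 16, and Adm, Egln3 and Vegfa are so on day 16.

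Adm, P4ha2 and Vegfa were lower in the Thy-1- than in the Thy-1+ fractions, and the 4 genes called lower in D6T- and the 3 in D9T- are near the background shares of 9.47% and 6.45%. Vegfa, the angiogenic growth factor, was at 53.7 FPKM in D0 and 13.7 in D3, at 15.4 in D6T- and 30.3 in D6T+, 34.6 in D9T- and 86.1 in D9T+, 88.8 in D12S+ and 112 in D12S-, 51.1 in D16S+ and 129.5 in D16S-, 11.7 in iPSCs and 45.8 FPKM in mESCs. Adm, which encodes the vasodilator adrenomedullin, was at 32.4 FPKM in D0 and 50.5 in D3, at 9.99 in D6T- and 46.6 in D6T+, 11.5 in D9T- and 44.1 in D9T+, 41.8 in D12S+ and 62.0 in D12S-, 20.3 in D16S+ and 127 in D16S-, 5.81 in iPSCs and 16.4 FPKM in mESCs. P4ha2, a collagen prolyl hydroxylase subunit, was at 55.6 FPKM in D0 and 26.3 in D3, at 5.77 in D6T- and 31.6 in D6T+, 6.46 in D9T- and 26.3 in D9T+, 23.5 in D12S+ and 35.0 in D12S-, 25.6 in D16S+ and 42.9 in D16S-, 16.1 in iPSCs and 54.8 FPKM in mESCs. On days 6 and 9 the Thy-1- fraction was lower by 0.94 and 1.29 for Vegfa, by 2.12 and 1.85 for Adm and by 2.27 and 1.87 for P4ha2 on the log2 scale. Each of the 3 was higher in D12S+ than in D9T-. P4ha1, a gene of the same function as P4ha2, was at 12.0 FPKM in D6T- but 27.6 in D6T+, a log2 difference of -1.14, beside -0.49 on day 9. The 8 fibroblast markers summed to 433.9 in D6T- against 2707 FPKM in D6T+, to 374.9 in D9T- against 2242 FPKM in D9T+ and to 258.0 FPKM in D12S+. Their part in these differences was not tested, and in bulk libraries fewer cells of a type cannot be told from less RNA per cell.

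The remaining targets moved less. Ddit4, an inhibitor of mTORC1, ranged from 46.9 FPKM in iPSCs to 219 FPKM in D12S-. Bnip3l stayed between 8.19 FPKM in D6T- and 16.3 FPKM in D16S+, and Bnip3 went from 25.3% of the summed FPKM of the pair in D0 to 74.1% in D12S+ and 71.7% in D12S-. Both genes hold many words found elsewhere, as given above. Higd1a, a mitochondrial survival gene, was between 12.5 and 22.1 FPKM in all libraries but mESCs (56.1 FPKM). Mxi1, an antagonist of Myc, was between 3.99 FPKM in D0 and 16.2 FPKM in D12S-.

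Next, the fractions of each day were compared over the whole list. D6T- had 3 of the 41 genes at least 2-fold higher than D6T+ (Hk2, Aldoc and Ankrd37), against 2.93% of the background, and 4 lower (Hif1a, Adm, P4ha1 and P4ha2), against 9.47%. D9T- had 1 higher (Slc2a3), against 1.81%, and 3 lower (Vegfa, Adm and P4ha2), against 6.45%. D12S+ had 2 higher than D12S- (Slc2a3 and Ldhb), against 4.79%, and 1 lower (Car9), against 3.03%. D16S+ had 3 higher than D16S- (Slc2a3, Ldhb and Pdk1), against 11.8%, and 7 lower (Eno2, Pfkfb3, Pfkfb4, Egln3, Vegfa, Car9 and Adm), against 15.2%. These counts were near the background shares on days 9, 12 and 16, and most of the list was thus within 2-fold between the fractions of a day. On day 16 the median log2 difference was -0.30 for the glycolysis genes and -0.64 for the hypoxia genes, beside -0.02 for all kept genes. Below 0 were 16 of the 25 glycolysis genes and 13 of the 16 hypoxia genes, beside 7274 of all 14178 kept genes. At that day the 5 endothelial markers summed to 15.4 FPKM in D16S+ and 46.3 FPKM in D16S-, the 6 leukocyte markers to 26.3 and 78.9 FPKM, and the fibroblast markers to 36.0 and 458.5 FPKM. Among the leukocyte markers, Laptm5 (19.0 and 57.3 FPKM) and Csf1r (6.63 and 19.9 FPKM) carried the sum, and the other 4 were below 1 FPKM in both. The part of these cell types in the differences was not tested.

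**Figure D4:**
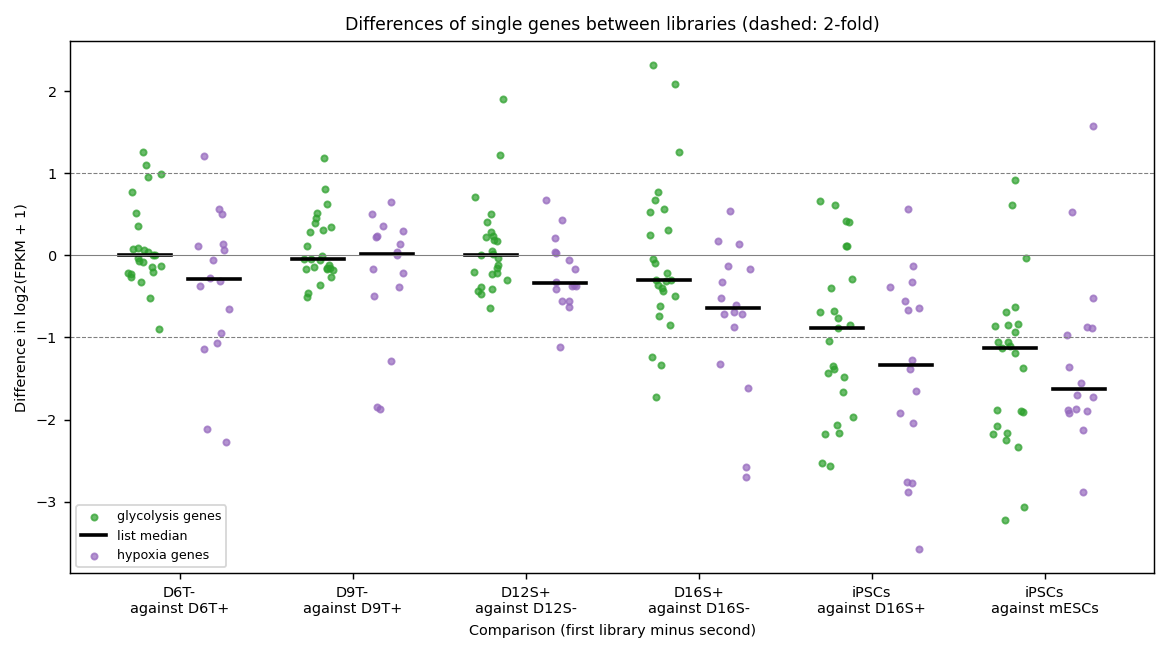
Differences of the 25 glycolysis genes (green) and 16 hypoxia genes (purple) in log2(FPKM + 1) for 6 comparisons, with the list median as a bar and 2-fold as dashed lines. The glycolysis medians lie near 0 on days 6 to 12, the hypoxia medians are -0.29, 0.02 and -0.34 on days 6, 9 and 12, and in iPSCs they are at -0.89 and -1.33 against D16S+ and at -1.13 and -1.63 against mESCs.

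Finally, the established lines were compared. Between D0 and iPSCs the list had no common direction, and 10 genes were higher and 9 lower in iPSCs, against 18.7% and 21.6% of the background. From D16S+ to iPSCs, however, 21 of the 41 genes were at least 2-fold lower, against 7.77% of the background, and 0 were higher, against 4.38%. Against mESCs, iPSCs had 26 genes lower, against 7.41%, and 1 higher (Epas1), against 6.79%. The median log2 differences from D16S+ were -0.89 for the glycolysis and -1.33 for the hypoxia genes beside -0.01 for all kept genes, and against mESCs they were -1.13 and -1.63 beside -0.01. Both comparisons share the iPSC library, so a low value there enters both. In iPSCs 18 of the 41 genes (43.9%) were at least 2-fold below D16S+ and mESCs alike, against 1.86% of the background, and 0 were above both, against 1.90%. This joint criterion was chosen after the values had been seen.

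The 18 genes were Slc16a3, Gpi1, Pfkl, Pfkp, Aldoa, Aldoc, Tpi1, Pgk1, Eno2, Ldhb and Pdk1, and, of the hypoxia genes, Egln3, Vegfa, Bnip3, Ankrd37, Ddit4, Adm and P4ha1. Examples are Slc16a3 at 18.6 FPKM in iPSCs against 113 FPKM in D16S+ and 182 FPKM in mESCs, Bnip3 at 6.01 against 50.6 and 50.5 FPKM, and Pgk1 at 48.8 against 208 and 235 FPKM. Slc2a1 and Hk2 were within 2-fold of both libraries in iPSCs, as was Slc2a3, though close to the threshold (log2 differences of -0.89 and -0.93), whereas Hk1 was lower than in D16S+ by 1.38. The pluripotency markers summed to 4793 FPKM in D16S+, 3545 in iPSCs and 4122 in mESCs, sums that Dppa5a dominated. Single markers differed more, such as Zfp42 at 58.6 in iPSCs against 174 FPKM in mESCs. The 6 epithelial markers summed to 1516 FPKM in iPSCs, 776.9 in D16S+ and 269.2 in mESCs, mostly of Krt18 and Krt8 in iPSCs, where Epcam and Cldn7 were lower than in D16S+ (79.3 against 150.3 and 36.0 against 84.8 FPKM). The skeletal muscle markers summed to 919.8, 390.4 and 360.1 FPKM, almost all of it Mylpf, while Myod1, Myog and Ckm were below 1 FPKM in these 3 libraries. The part of such cells in the low levels of iPSCs was not tested. Across the list, mESCs held the highest level of 17 genes, 15 of them glycolysis genes, and iPSCs of 0, beside 18.5% and 13.6% of the kept genes. The lowest level of 12 of the 41 genes was in iPSCs, beside 14.0% of the kept genes above 0 FPKM in all libraries.

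Other genes of both pathways that are not in the list were counted in the same way. Of 21 further glycolysis genes kept by the filter, 0 were at least 2-fold higher or lower between D9T- and D12S+, against 7.05% and 3.30% of the background. Between D9T+ and D12S-, 0 were higher and 1 lower (Pcx), against 2.50% and 3.31%. From D0 to D16S+, 5 of the 21 were higher and 3 lower, against 20.0% and 20.9%. From D0 to D16S-, 3 were higher and 2 lower, against 12.8% and 11.4%. From D16S+ to iPSCs, only 1 of the 21 was lower and 0 higher, against 7.77% and 4.38%, with a median log2 difference of -0.01. In iPSCs 8 of the 21 were lower and 0 higher than in mESCs, against 7.41% and 6.79%. Among the 8 was Pkm, which encodes the muscle pyruvate kinase and its M2 form (1480 against 3195 FPKM). Of 33 further hypoxia genes, 6 were higher and 0 lower in D12S+ than in D9T-, against 7.05% and 3.30%. In D12S-, 7 were higher and 3 lower than in D9T+, against 2.50% and 3.31%. From D0 to D16S+, 9 of the 33 were higher and 8 lower, against 20.0% and 20.9%. From D0 to D16S-, 9 were higher and 4 lower, against 12.8% and 11.4%. From D16S+ to iPSCs, 9 were lower and 1 higher, against 7.77% and 4.38%. In iPSCs 14 were lower and 2 higher than in mESCs, against 7.41% and 6.79%. Ak4, an adenylate kinase of mitochondria, went from 0.257 FPKM in D0 to 27.6 in D12S+ and 64.0 in D16S+, beside 12.6 FPKM in D16S-. The lysyl oxidases Lox and Loxl2, which crosslink collagen, went the other way, from 60.0 and 258 FPKM in D0 to 0.743 and 11.3 FPKM in D16S+. Between the fractions of day 16, 5 of the 33 were higher and 11 lower in D16S+, against 11.8% and 15.2%. Between those of day 12, 1 was higher and 3 were lower in D12S+, against 4.79% and 3.03%.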

How the data were processed

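Poly(A) RNA of 12 libraries, 1 per condition, was sequenced from TruSeq libraries. The authors aligned reads to mm9 with STAR, removed reads with more than 2 mismatches or more than 1 locus, and the deposited table holds FPKM values per gene from cuffdiff with an interval around each value. Tool versions, gene annotation and scaling between libraries are not given in the sources used here, and neither is the level of the intervals. The 12 status columns were not used. Column names were matched to conditions through the sorting sign in the labels.

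Values were compared as log2(FPKM + 1) over genes with at least 1 FPKM in at least 1 library, and a call required a 2-fold difference, with Python 3.11.15, pandas 2.3.3 and numpy 2.4.6. Only the 2-fold calls and the depth estimate were tried on simulated data. The calls were tried with planted 4-fold changes in genes of high level, which says little of genes of low level. Isoform shares, promoter matches and the word search were not tried in this way. Isoform shares were computed over 13 families of paralogs. The 41 genes were named by symbol, and every one is described by its values in the libraries. The members, families, markers and further pathway genes were chosen with earlier results of these data known. The comparisons from D9T- to D12S+ and from D9T+ to D12S- and the joint criteria over several libraries were added after the values had been seen. Alternatives were a pseudocount of 0.1, scaling to the same total or by the median of ratios, no filter, a filter of 5 FPKM and a 4-fold threshold. Gene positions are from the GENCODE annotation of mm9, and for all 41 genes they overlapped the position given by the authors. Promoter windows are from RefSeq.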

Additional observations from a re-analysis of the deposited data

How the results depend on the processing

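No paired analysis was possible because each condition has 1 library and the labels give no replicate numbers, and for the same reason no library could be left out of a group. Of 264 recomputed counts and medians of the lists, 242 stayed within 1.5-fold and 22 moved further. No median of at least 1 on the log2 scale changed sign, whereas 3 smaller medians did, given below. Of 1476 recomputed differences of single genes, 1464 stayed within that margin and 12 moved, all of Aldoc, Ankrd37 or Car9 with a pseudocount of 0.1.

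A 4-fold threshold, which passes fewer genes by construction, gave for the 41 genes 0 higher and 0 lower from D0 to D3, 6 higher and 4 lower from D0 to iPSCs, 0 lower from D0 to D16S+ and 13 higher from D0 to D16S-. Between fractions it gave 0 higher and 2 lower in D6T-, 0 and 0 in D9T-, 0 and 0 in D12S+ and 2 lower in D16S+. It left 10 lower from D16S+ to iPSCs, 0 higher and 9 lower in iPSCs than in mESCs, 6 higher from D9T- to D12S+ and 6 higher from D9T+ to D12S-. When the libraries were all brought to 1 common total FPKM, 0 genes were lower from D0 to D16S+, 5 were higher in D6T- than in D6T+ and 2 were higher in iPSCs than in mESCs. A pseudocount of 0.1 gave 5 genes higher in D6T- than in D6T+. The share of all kept genes was not computed at these alternative settings, so the counts of this paragraph have no background beside them.

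That scaling raised the median of all kept genes by 0.30 from D0 to D16S+, by 0.19 from D0 to D16S- and by 0.15 from D0 to iPSCs on the log2 scale. It turned the sign of small medians, from -0.09 to 0.13 for the hypoxia genes from D0 to D3, from -0.00 to 0.06 for the glycolysis genes between the day 6 fractions and from -0.04 to 0.07 between those of day 9. The counts say nothing of the spread between cultures, which 1 library per condition cannot give.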
